A study of Mus musculus with 8 samples.

Results

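The osteogenic transcription factors examined here were Runx2, its partner subunit Cbfb, Sp7 (osterix), the homeobox genes Dlx3, Dlx5, Dlx6 and Msx2, and Atf4. These 8 genes were chosen by name, out of the 49315 genes counted, as factors known to act in osteoblasts. The choice was made with earlier results of these data known, which limits how shares among them can be read. They were followed in 7 sorted bone marrow populations, named clusters 1 to 7, and in input bone marrow cells, with 1 RNA-seq library each and no replicate. By the labels all samples came from wild type C57BL/6J mice with an age of 6 weeks and no treatment. The methods of the study name C57BL/6JJcl mice with a wider range of ages, and also a transgenic line with EGFP under the CAG promoter, which is not named in the labels of these libraries. Every sorted population was negative for CD31, CD45 and Ter119. By the study's sort plots, cluster 1 was CD24- Sca-1+ CD39+, cluster 2 was Ly-6C- CD24- CD39-, cluster 3 was Ly-6C+ CD24+ CD39- CD54-, cluster 4 was Ly-6C- CD54+ CD24-, cluster 5 was CD54+ CD121b- CD24- Ly-6C-, cluster 6 was CD24+ Sca-1- CD39- and cluster 7 was CD54- Sca-1+ CD24- Ly-6C-. The labels call all 8 samples stromal cells of the bone marrow, also the input, and do not say whether mice were pooled.

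Osteoblasts arise from mesenchymal cells of the marrow stroma. Runx2 binds DNA as a heterodimer with Cbfb and is required for commitment to this lineage, and Sp7, a zinc finger factor, acts downstream of it. Dlx and Msx homeobox proteins bind related AT-rich sites, and Dlx5 and Dlx3 are known as activators and Msx2 mainly as a repressor of osteoblast genes. Atf4, made in most cells and controlled largely at translation, drives amino acid import and synthesis and, in osteoblasts, osteocalcin.

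Expression was measured as the number of reads on the exons of each gene. It is given as RPKM, reads scaled to the exon length and to the total count of the library. Comparisons between genes rest on these exon lengths, which the intervals of ratios take as exact. Total counts were 24205863, 25349917, 27102715, 32549319, 12833648, 31669132 and 33238133 in clusters 1 to 7 and 20162876 in the input cells. Brackets after a ratio hold its exact 95% counting interval. It covers the error of counting reads alone, since copies made by PCR cannot be recognised, and the variation between sorts was not measured, so no p-value is given. In bulk samples, fewer cells expressing a gene and less RNA per cell cannot be told apart. The libraries also differed in composition. Reads on Rn18s-rs5, Lars2 and mmu-mir-689-2 made up 34.8% of the total of cluster 5, 10.4% of that of cluster 2 and 0.274% of that of cluster 7. Scaling by TMM factors of edgeR, which set the typical gene level between libraries, raised log2 levels by 0.44 in cluster 5 and 0.37 in cluster 6, lowered them by 0.14 in cluster 1 and 0.68 in the input cells, and moved the other 4 libraries by less. Values below are scaled by the total count unless TMM is named.

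The labelled stromal identity was checked first. The stromal markers Pdgfra, Pdgfrb, Lepr and Cxcl12 were present in every sorted library, with a summed RPKM of 110, 30.9, 50.1, 215, 73.0, 22.9 and 152 in clusters 1 to 7 and 68.2 in the input cells. By total count each of these markers was lower in clusters 2 and 6 than in the input cells. Pdgfra was 4.37 and 7.44 there, against 14.1. Transcripts of other cell types were present as well. The 5 neutrophil and monocyte markers, of which S100a9 was the most abundant, summed to between 8714 in cluster 3 and 22090 in cluster 7, against 32620 in the input cells. Ptprc, which encodes CD45, lay between 1.69 in cluster 3 and 9.26 in cluster 7. None of the 31 marker genes was at 0 in a sorted library. The summed RPKM of the B cell markers (most abundant Cd79b) lay between 41.1 and 93.8 in the sorted libraries and was 217 in the input cells, that of the macrophage markers (Cd68) between 8.67 and 43.9 against 62.3, that of the endothelial markers (Pecam1) between 2.04 and 8.72 against 10.3, and that of the osteoclast markers (Ctsk) between 124 and 506 against 226. The osteoclast sum was nearly all Ctsk and Acp5. Ocstamp, the other osteoclast marker, was 0.535 in cluster 7 against 0.407 in the input cells, and below the input in the other sorted libraries. The part of other cell types in the levels of the osteogenic factors was not tested.

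Runx2 (ENSMUSG00000039153, GRCm38 chr17:44495987-44814797, minus strand) was highest in cluster 2. Its RPKM was 2.05, 11.1, 4.37, 5.72, 4.43, 8.24 and 5.03 for clusters 1 to 7 and 2.04 for the input cells, from at least 363 counts in each. Clusters 2 and 6 stood above the rest, cluster 1 was level with the input cells (but 1.45 times them, 1.26 to 1.67, with TMM factors), and clusters 5 and 3 were next to each other with a ratio of 1.01 (0.909 to 1.13). The level in cluster 2 was 5.40 times that in cluster 1 (4.88 to 6.00) and 1.34 times that in cluster 6 (1.27 to 1.42), but with TMM factors the latter ratio was 1.05 (0.990 to 1.11). Exons of Runx2 share 519 bases with those of the antisense gene Gm10497. That gene had 20 to 76 counts in the sorted libraries, and whether the counting used strand is not given in the sources used here.

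Stretches of RefSeq promoter windows (GRCm38.p6, 300 bases, from 250 before to 50 after a gene start) are printed for genes whose levels are compared here and whose windows carry letters that these factors are known to bind. Both strands were searched for the RUNX letters ACCACA, the homeodomain letters TAATTA and the amino acid response letters TGATGCAA bound by ATF4, and capitals mark them or their reverse complement. Windows were held for 4 of the 8 factors, Runx2, Cbfb, Msx2 and Atf4. Among these Runx2 alone held ACCACA, at 3 places, beside 18.9% of the 27025 genes with a window. Its stretches (chr17:44814690-44814719 and chr17:44814583-44814612, minus strand) lie inside the gene as the deposited files bound it. These matches are letters only, and no binding was measured in the libraries used here.
Runx2, first stretch: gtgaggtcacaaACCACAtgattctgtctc
Runx2, second stretch: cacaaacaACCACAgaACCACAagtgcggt

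Cbfb (ENSMUSG00000031885, chr8:105170674-105217989, plus strand) stabilises the DNA binding of all 3 RUNX proteins. Its RPKM was 23.0, 33.6, 22.8, 22.0, 16.0, 39.3 and 35.5 in clusters 1 to 7 and 32.8 in the input cells. Clusters 6, 7 and 2 formed an upper group, and clusters 1, 3 and 4 a middle one in which the ratios of neighbours had intervals holding 1. The ratio of highest to lowest was 2.46 (2.27 to 2.67) for cluster 6 over cluster 5, a smaller span than that of Runx2. With TMM factors the lowest level was in cluster 1, at 20.8, and the ratios of neighbours among the 4 lowest libraries had intervals holding 1.

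Sp7 (ENSMUSG00000060284, chr15:102356609-102366325, minus strand) was highest in cluster 6. Clusters 1 to 7 had an RPKM of 2.27, 21.7, 20.8, 3.38, 10.03, 38.6 and 8.42, and the input cells had 0.939. Clusters 6, 2 and 3 were high and clusters 1 and 4 low, and cluster 2 did not differ from cluster 3 beyond counting error, with a ratio of 1.04 (0.971 to 1.12). Cluster 6 was 1.78 times cluster 2 (1.68 to 1.89) and 17.0 times cluster 1 (14.5 to 20.01). Both ratios were larger with TMM factors, at 2.28 and 24.2. Of the 6 factors above an RPKM of 2 in at least 1 sorted library, Sp7 had the widest range among the sorted libraries.

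Dlx5 (ENSMUSG00000029755, chr6:6877805-6882085, minus strand) behaved differently from Sp7. Its RPKM was 1.28 in cluster 1 and 7.44, 6.21, 6.88, 7.196, 8.39 and 7.52 in clusters 2 to 7, with 2.24 in the input cells. In clusters 2 to 7 the ratio of each library to the next in order had an interval holding 1, although the extremes of these 6, clusters 6 and 3, lay further apart, and cluster 1 stood alone below them, a factor of 4.86 under cluster 3 (3.76 to 6.37). With TMM factors clusters 6 and 5 reached 10.8 and 9.73 and separated from cluster 2, at 7.48.

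Dlx3 (ENSMUSG00000001510, chr11:95120119-95125296, plus strand), the homeobox factor of ectoderm, tooth and bone, followed another order. Its RPKM was 3.17, 4.30, 19.5, 1.58, 4.60, 12.8 and 2.47 in clusters 1 to 7 and 3.79 in the input cells. Clusters 3 and 6, the CD24+ gates, were the highest, and the other 5 sorted libraries lay between 1.58 and 4.60. Cluster 3 was 1.52 times cluster 6 (1.40 to 1.65) and 12.4 times cluster 4 (10.4 to 14.9). With TMM factors the former ratio fell to 1.20 (1.11 to 1.30).

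Dlx6 and Msx2 had the lowest levels of the 8 factors, and neither passed an RPKM of 2 in a sorted library. In cluster 1, with 2 and 8 counts, they were near the limit of what the depth could show. Dlx6 (ENSMUSG00000029754, chr6:6863334-6868568, plus strand) lies next to Dlx5, with 9236 bases between their 3′ ends. It had 2, 34, 20, 24, 40, 30 and 19 counts in clusters 1 to 7 and 34 in the input cells, or an RPKM of 0.0348, 0.565, 0.311, 0.310, 1.31, 0.399, 0.241 and 0.710. Cluster 5 was 2.32 times cluster 2 (1.43 to 3.78), the ratios of neighbours among clusters 2, 6, 3, 4 and 7 had intervals holding 1, and cluster 1 was lowest. Within each sorted library Dlx6 was a small part of Dlx5, with a ratio of 0.182 in cluster 5 (0.127 to 0.257) and at most 0.0759 in the others. In the input cells the ratio was 0.318 (0.209 to 0.472). Exons of Dlx6 share 104 bases with an unnamed antisense gene, ENSMUSG00000094868, which had at most 10 counts in a sorted library and 42 in the input cells.

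Msx2 (ENSMUSG00000021469, chr13:53466884-53473074, minus strand) had 8, 30, 149, 29, 18, 81 and 19 counts in clusters 1 to 7 and 36 in the input cells. Its RPKM was 0.101, 0.361, 1.68, 0.272, 0.428, 0.780, 0.174 and 0.545. Cluster 3 led with 2.15 times the level of cluster 6 (1.63 to 2.85), cluster 6 was 1.82 times cluster 5 (1.08 to 3.23), and the remaining neighbours did not differ beyond counting error. This order resembled that of Dlx3. Pearson's r between the log2(RPKM + 1) values of Dlx3 and Msx2 was 0.92 over the 7 sorted libraries, the highest of the 28 pairs of factors, given as a description since all genes share the depth and composition of each library.

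Msx2 was alone among the 4 factors with a window in holding the homeodomain letters TAATTA, beside 6.12% of all genes with a window. The stretch (chr13:53472950-53472979, minus strand) lies inside the gene as the files bound it.
Msx2: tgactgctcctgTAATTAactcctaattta

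Atf4 (ENSMUSG00000042406, chr15:80255184-80257540, plus strand) was by far the most abundant of the 8. Its RPKM was 349, 261, 262, 375, 173, 133 and 240 in clusters 1 to 7 and 206 in the input cells. Clusters 4 and 1 were highest and cluster 6 lowest, the reverse of Sp7 at both ends, and clusters 3 and 2 were level with a ratio of 1.00 (0.976 to 1.03). Cluster 4 was 2.82 times cluster 6 (2.75 to 2.90), and 2.25 times it with TMM factors. The r of Atf4 with Sp7 was -0.75, the lowest of the 28 pairs. Runx2 had an r of 0.79 with Dlx5, 0.70 with Sp7 and 0.15 with Dlx3, and Sp7 one of 0.76 with Dlx3.

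**Figure D1:**
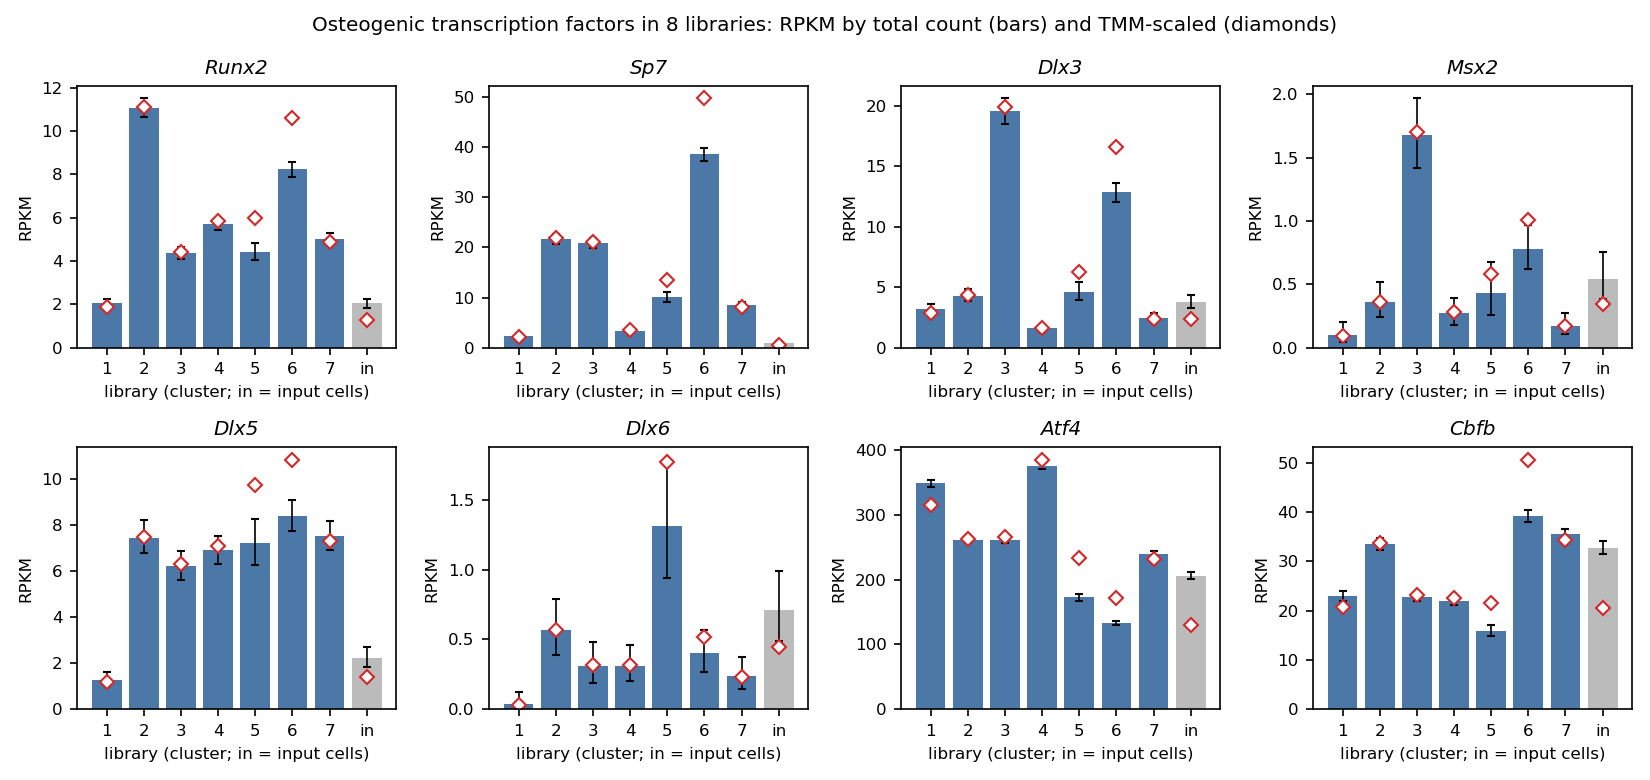
RPKM of the 8 factors in the libraries of clusters 1 to 7 (blue) and the input cells (grey), 1 library each. Bars are scaled by the total count, error lines are exact 95% Poisson intervals of the count, and open diamonds are TMM-scaled values without their intervals. Sp7 peaks in cluster 6, Runx2 in cluster 2 and Dlx3 in cluster 3, Dlx5 spans 6.21 to 8.39 in clusters 2 to 7, and the diamonds of clusters 5 and 6 lie above their bars.

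Cluster 1, the Sca-1+ CD39+ gate, was the lowest of the 7 sorted libraries for 5 of the 8 factors: Runx2, Sp7, Dlx5, Dlx6 and Msx2. Of the 6 factors that passed the RPKM filter, 3 were lowest there, beside 3.82% of the 12360 genes that passed. With TMM factors Cbfb joined them, giving 4 of 6 beside 8.94%. The exceptions in cluster 1 were Atf4, second highest at 349, and Dlx3, which was lower in clusters 4 and 7. Cluster 6 was highest for 3 of the 6 (Sp7, Dlx5 and Cbfb) beside 7.1% of all genes, but beside 20.9% with TMM factors, and the lead of Dlx5 over cluster 7 was within counting error, at 1.11 (0.992 to 1.25). None of the 6 was highest in cluster 1 or cluster 7, where 21.3% and 25.3% of all genes that passed were highest (9.98% and 17.1% with TMM factors), nor was Dlx6 or Msx2.

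All 6 factors that passed differed more than 2-fold in RPKM + 1 between their highest and lowest sorted library. That call was made for 70.6% of the 12360 genes (56.8% with TMM factors), so a share of this size is near the background and nothing is read from it. The median log2 fold of RPKM + 1 was 2.01 over the 6 factors and 1.74 over all 8, beside 1.26 over all genes that passed. By total count Cbfb lost the call without cluster 5, the shallowest library, where its log2 fold was 0.81. With TMM factors its log2 fold was 1.24 between clusters 6 and 1, which does not rest on cluster 5. Runx2 fell just under the call by total count, at 0.98, when clusters 2, 4 and 6 were left out, a setting added after the data were seen. These hold its highest levels by total count. With TMM factors cluster 5, at 5.98, and cluster 1, at 1.85, were still more than 2-fold apart in RPKM + 1.

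Ratios between genes within a library do not depend on how the library is scaled. The pairs were chosen after the levels were seen and are given as a description. For clusters 1 to 7, Sp7 over Runx2 was 1.11 (0.921 to 1.33), 1.96 (1.84 to 2.09), 4.77 (4.41 to 5.16), 0.592 (0.523 to 0.667), 2.27 (1.98 to 2.60), 4.69 (4.45 to 4.94) and 1.67 (1.54 to 1.83), against 0.461 for the input cells (0.340 to 0.613). Sp7 thus exceeded Runx2 more than 4-fold per length in both CD24+ gates, with overlapping intervals, and was below Runx2 in cluster 4, although Runx2 itself was higher in cluster 4 than in cluster 3.

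Dlx3 over Dlx5 divided the libraries in another way. For clusters 1 to 7 the ratio was 2.48 (1.88 to 3.30), 0.577, 3.15 (2.81 to 3.53), 0.229, 0.640, 1.53 (1.38 to 1.69) and 0.328, and for the input cells 1.69. Dlx3 was the main Dlx gene in clusters 1, 3 and 6 and Dlx5 in clusters 2, 4, 5 and 7, the latter with upper bounds of at most 0.791. In cluster 1 this came with low levels of both genes, 3.17 and 1.28.

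**Figure D2:**
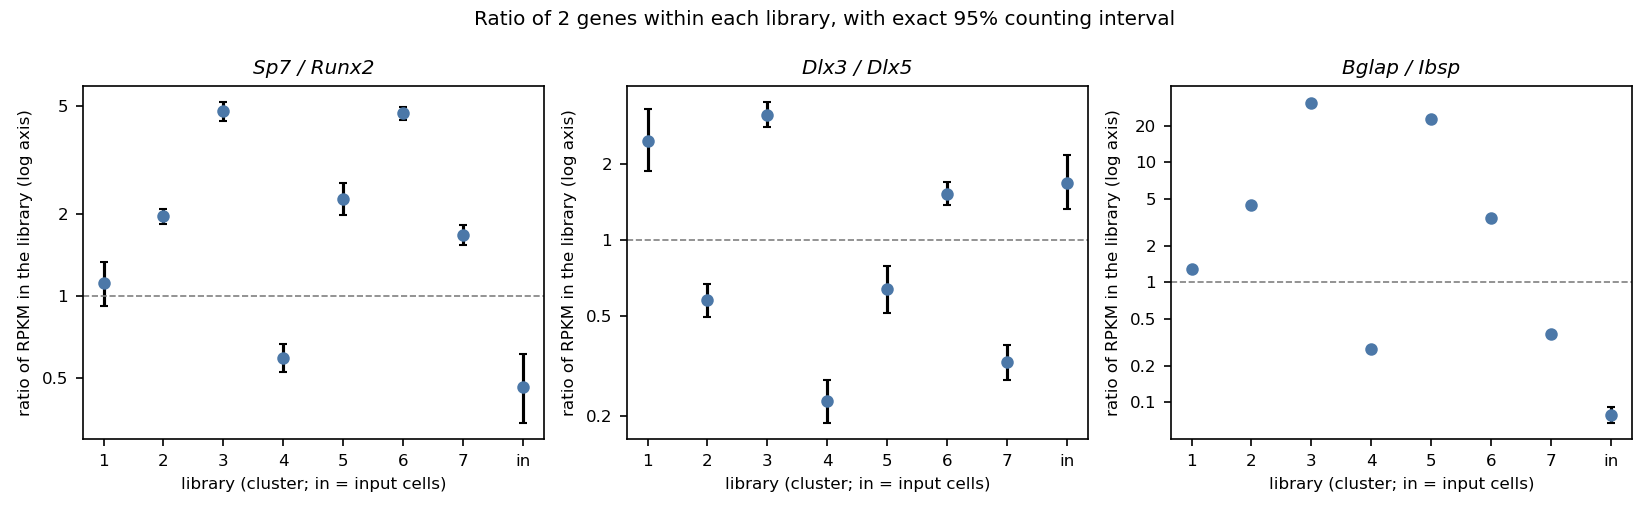
Ratio of RPKM between a pair of genes in the same library (log axis) for Sp7 over Runx2, Dlx3 over Dlx5 and Bglap over Ibsp, in clusters 1 to 7 and the input cells (in), with exact 95% counting intervals and a dashed line at 1. Sp7 over Runx2 is highest in clusters 3 and 6 at 4.77 and 4.69 and under 1 in cluster 4 and the input cells, and Dlx3 over Dlx5 is above 1 in clusters 1, 3, 6 and the input cells.

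The relatives of the 8 factors, from a list named with them, showed how much of each family the osteogenic member was. Runx2 made up 36.9% of the summed RPKM of Runx1, Runx2 and Runx3 in cluster 2 and 36.8% in cluster 6, 25.3% to 30.3% in clusters 3, 4, 5 and 7, 18.2% in cluster 1 and 13.0% in the input cells. Runx1, needed for blood formation and also made in stroma, varied less, from 7.35 in cluster 1 to 12.6 in cluster 4, and Runx2 exceeded it beyond counting error only in cluster 2, with a ratio of 1.24 (1.17 to 1.31). In cluster 6 the ratio was 1.01 (0.959 to 1.07). Runx3 was highest in the same pair of libraries, at 9.99 in cluster 2 and 6.00 in cluster 6, and lay between 1.86 and 2.60 in the other 5.

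Cbfb did not follow the sum of its RUNX partners. Its RPKM was 1.07 times that sum in cluster 4, 1.09 times in cluster 5 and 1.12 times in cluster 2, and 2.04 times in cluster 1 and 2.01 times in cluster 7. Among the Dlx genes, Dlx3 and Dlx5 together with Dlx6 made up nearly all of the summed RPKM in the sorted libraries. Dlx4, which lies next to Dlx3 with 15150 bases between their 3′ ends, reached 1.08 in cluster 3 and 0.531 in cluster 6, the libraries where Dlx3 was highest, while Dlx1 and Dlx2 did not exceed 0.124 in a sorted library. Msx1, the paralog of Msx2, ran in another order, with its highest level in cluster 1 (28.2) and its lowest in cluster 6 (3.599). Msx1 over Msx2 was 280 in cluster 1, resting on 8 counts of Msx2, and 4.61 in cluster 6 (3.61 to 5.95). Atf5, a relative of Atf4, was 31.4 in cluster 1 and at most 8.91 in the other sorted libraries.

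**Figure D3:**
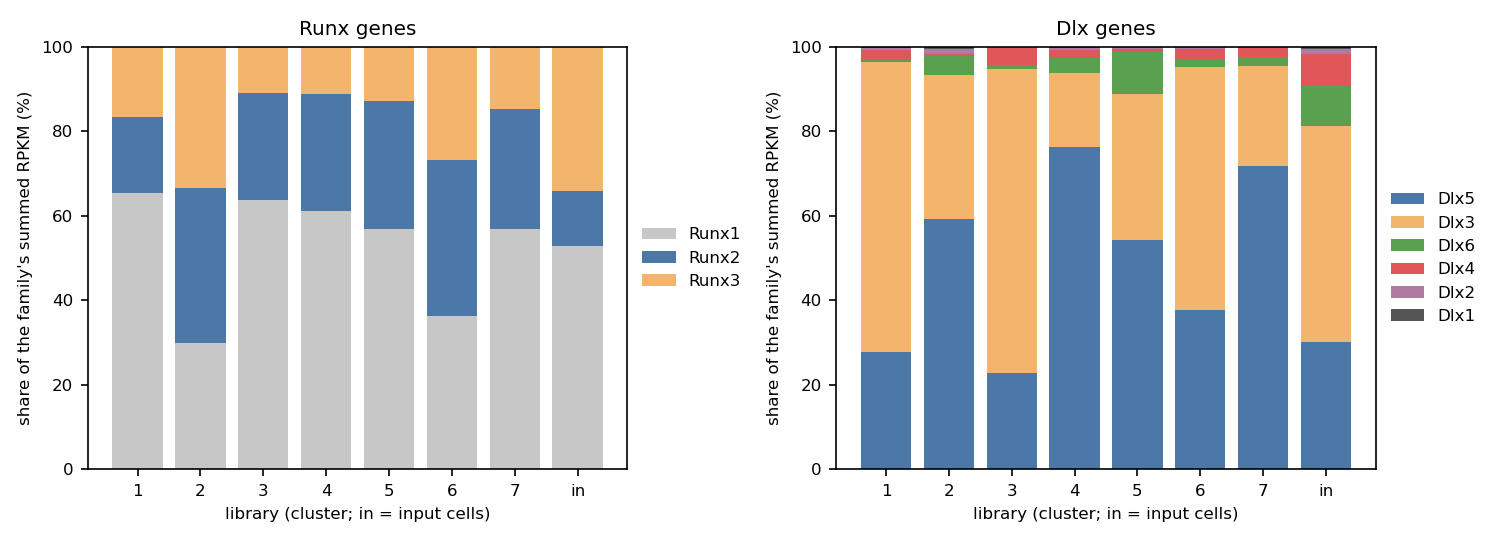
Share of the summed RPKM (%) of Runx1, Runx2 and Runx3 (left) and of Dlx1 to Dlx6 (right) in each library of clusters 1 to 7 and the input cells (in), without error bars. The share of Runx2 is largest in clusters 2 and 6 (36.9% and 36.8%), and Dlx3 takes the larger share of the Dlx genes in clusters 1, 3 and 6.

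Against the input cells, the level of Sp7 stood out. Its ratio of RPKM to the input ran from 2.42 in cluster 1 (1.77 to 3.35) to 41.1 in cluster 6 (31.5 to 54.7). For Runx2 the ratio ran from 1.01 in cluster 1 (0.873 to 1.16) to 5.43 in cluster 2 (4.86 to 6.08), and for Dlx5 from 0.572 in cluster 1 (0.416 to 0.783) to 3.75 in cluster 6 (3.04 to 4.67). With TMM factors Dlx5 in cluster 1 did not differ from the input beyond counting error, at 0.827 (0.601 to 1.13), and cluster 6 reached 7.72. Cbfb ranged from 0.487 in cluster 5 to 1.20 in cluster 6 and Atf4 from 0.644 in cluster 6 to 1.82 in cluster 4. With TMM factors neither was below the input beyond counting error in a sorted library. Cbfb then ran from 1.01 in cluster 1 (0.954 to 1.08) to 2.47 in cluster 6, and Atf4 from 1.33 in cluster 6 (1.28 to 1.37) to 2.98 in cluster 4. Dlx3 was above the input in clusters 3 and 6 at 5.16 and 3.39, and below it in cluster 4 at 0.417 and in cluster 7 at 0.652 (0.535 to 0.795). With TMM factors cluster 4 stayed below the input at 0.683 (0.544 to 0.854), cluster 7 was level with it at 1.01 (0.826 to 1.23), and clusters 2 and 5 were above it as well, at 1.82 (1.51 to 2.20) and 2.62 (2.11 to 3.26). Sp7 in cluster 6 was 84.7 times the input and Runx2 in cluster 2 was 8.72 times the input with TMM factors. These ratios depend on scaling, because the median log2 difference of all genes to the input lay between -0.60 and -1.24 with total counts, and between -0.18 and 0.14 with TMM factors.

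Of the 6 factors tested in each library, 0, 3, 3, 3, 2, 4 and 2 were more than 2-fold higher than in the input cells in clusters 1 to 7, by RPKM + 1, beside 5.53%, 7.06%, 4.33%, 4.68%, 3.21%, 3.82% and 3.43% of all genes tested. By RPKM + 1, none of them was more than 2-fold lower than in the input cells in any cluster, beside 41.6%, 47.9%, 46.5%, 45.5%, 61%, 53.6% and 39.4% of all genes, or 27.3%, 28.8%, 29.5%, 27.3%, 26.6%, 28.3% and 25.9% with TMM factors. That rests on the added 1. By total count the ratio of RPKM itself was 0.417 for Dlx3 in cluster 4 and 0.487 for Cbfb in cluster 5. With a pseudocount of 0.1 the log2 fold of Dlx3 in cluster 4 was -1.21. Dlx6 and Msx2 did not pass the filter and were not tested. With TMM factors the counts of higher factors were 1 of 4 in cluster 1 and 4, 5, 4, 4, 5 and 3 of 6 in clusters 2 to 7, beside 13.4%, 16.7%, 13.8%, 14.3%, 12.5%, 14.4% and 10.1%. Genes were tested if their RPKM exceeded 2 in either library. Sp7, at 0.939 in the input cells, passed only through the sorted libraries, so it could be called higher but not lower. Where tested with TMM factors, Runx2 and Dlx5, at 1.28 and 1.40 in the input cells, were in the same position. The counts are therefore a description only. All 7 comparisons share the 1 input library. Levels this low in the input should be read beside genes not used in marrow, a check chosen after the values were seen. The 991 olfactory receptor genes had a median RPKM of 0 in every sorted library but 0.165 in the input cells, where 79.5% of them lay below Sp7, 75.3% below Dlx6 and 71.2% below Msx2. Shares of 91.4% and 92.6% lay below Runx2 and Dlx5 there, at 2.04 and 2.24, beside a 90th percentile of 1.86 for the receptor genes.

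The matrix and receptor genes that mark the osteoblast were read beside the factors. All 6 genes of that list passed the 2-fold call, beside 70.6% of all genes (56.8% with TMM factors), with a median log2 fold of 3.33. Col1a1, Col1a2, Alpl and Sparc were highest in cluster 6, where Col1a1, the main chain of bone collagen, had an RPKM of 15952, against 1962 in cluster 4. Alpl, the phosphatase of mineralising cells, was 404 in cluster 6 and 26.5 in cluster 1. Pth1r, the parathyroid hormone receptor, was highest in cluster 2 at 402, next to 352 in cluster 6, an order that turned with TMM factors. Mmp13, a collagenase of osteoblasts and hypertrophic chondrocytes, was highest in cluster 7 at 800.4, where the 8 factors had none of their maxima.

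Of the 6 late osteoblast genes, 4 were highest in cluster 6 and 2 in cluster 3, and 4 were lowest in cluster 1 and 2 in cluster 4 (5 and 1 with TMM factors, where Bglap2 moved to cluster 1). Of all genes that passed, 7.1% were highest in cluster 6 (20.9% with TMM factors) and 3.82% lowest in cluster 1 (8.94%). The shares highest in cluster 3 and lowest in cluster 4 are not given here, so nothing is read from the counts there. The 2 in cluster 3 were Bglap and Bglap2, the near-identical osteocalcin genes, whose reads could be split between them by the counting. Their lead over cluster 6 depended on the scaling: for Bglap it was 1.27 (1.26 to 1.28) by total count but 1.00 (0.996 to 1.01) with TMM factors, and for Bglap2 it fell from 1.29 to 1.01 (1.01 to 1.02). Bglap had an RPKM of 254, 3176, 14020, 190.3, 5097, 11032 and 276 in clusters 1 to 7 and 14.4 in the input cells. Ibsp, bone sialoprotein, had 197, 715, 446, 676, 219.6, 3192 and 740.4 and 184 in the input cells, and Spp1, osteopontin, ran from 194 in cluster 1 to 2681 in cluster 6. Bglap over Ibsp was 31.4 in cluster 3 (31.0 to 31.9), 23.2 in cluster 5 (22.6 to 23.9), 4.44 in cluster 2, 3.46 in cluster 6 and 0.281 in cluster 4 (0.272 to 0.291). Clusters 3 and 6, whose Sp7 to Runx2 ratios had overlapping intervals, thus differed in the balance of these genes, and cluster 5 had a high Bglap share with an intermediate Sp7 level of 10.03.

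Among the osteocyte genes, Dmp1 reached 415 in cluster 6 and 203 in cluster 3 and was 3.51 in cluster 1, while Sost, Mepe and Fgf23 did not pass an RPKM of 2 in any sorted library, although Mepe reached 2.30 in cluster 6 with TMM factors. Pdpn, also made by fibroblasts and other cells, was highest in cluster 1 at 43.9. As a description over 7 libraries, r with Sp7 was 0.93 for Phex, 0.91 for Dmp1, 0.91 for Ifitm5, 0.90 for Bglap2 and 0.87 for Bglap, and r with Runx2 was 0.69, 0.50, 0.47, 0.43 and 0.39 for the same genes. Ibsp and Spp1 ran the other way, with 0.65 and 0.73 for Sp7 and 0.72 and 0.78 for Runx2. Pth1r was the list gene with the highest r with Runx2, at 0.91, and Spp1 that with the highest r with Dlx5, at 0.93. Dlx3 had an r of 0.89 with Bglap, Ifitm5 and Dmp1 and of 0.30 with Ibsp.

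The RUNX letters ACCACA were held by Bglap and Spp1 out of 5 late osteoblast genes with a window, by Dmp1 and Mepe out of 5 osteocyte genes, by Sparc and Mmp13 out of 5 matrix and receptor genes, by 2 of 6 relatives and by 2 of 6 factors of other lineages, but by none of 5 RUNX2 regulators and none of 9 ATF4 targets, beside the 18.9% of all genes. Bglap and Dmp1 are printed as the genes with the largest ranges among the sorted libraries in their lists. The first stretch is the 200 bases before the start of Bglap (chr3:88384467-88384666, minus strand), and that of Dmp1 lies at chr5:104202441-104202470 on the plus strand.
Bglap: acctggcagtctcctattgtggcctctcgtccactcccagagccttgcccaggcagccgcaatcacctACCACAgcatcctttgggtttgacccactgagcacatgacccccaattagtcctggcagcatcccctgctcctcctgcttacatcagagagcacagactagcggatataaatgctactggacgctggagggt
Dmp1: agtcatttgagaACCACAagagctttttag

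**Figure D4:**
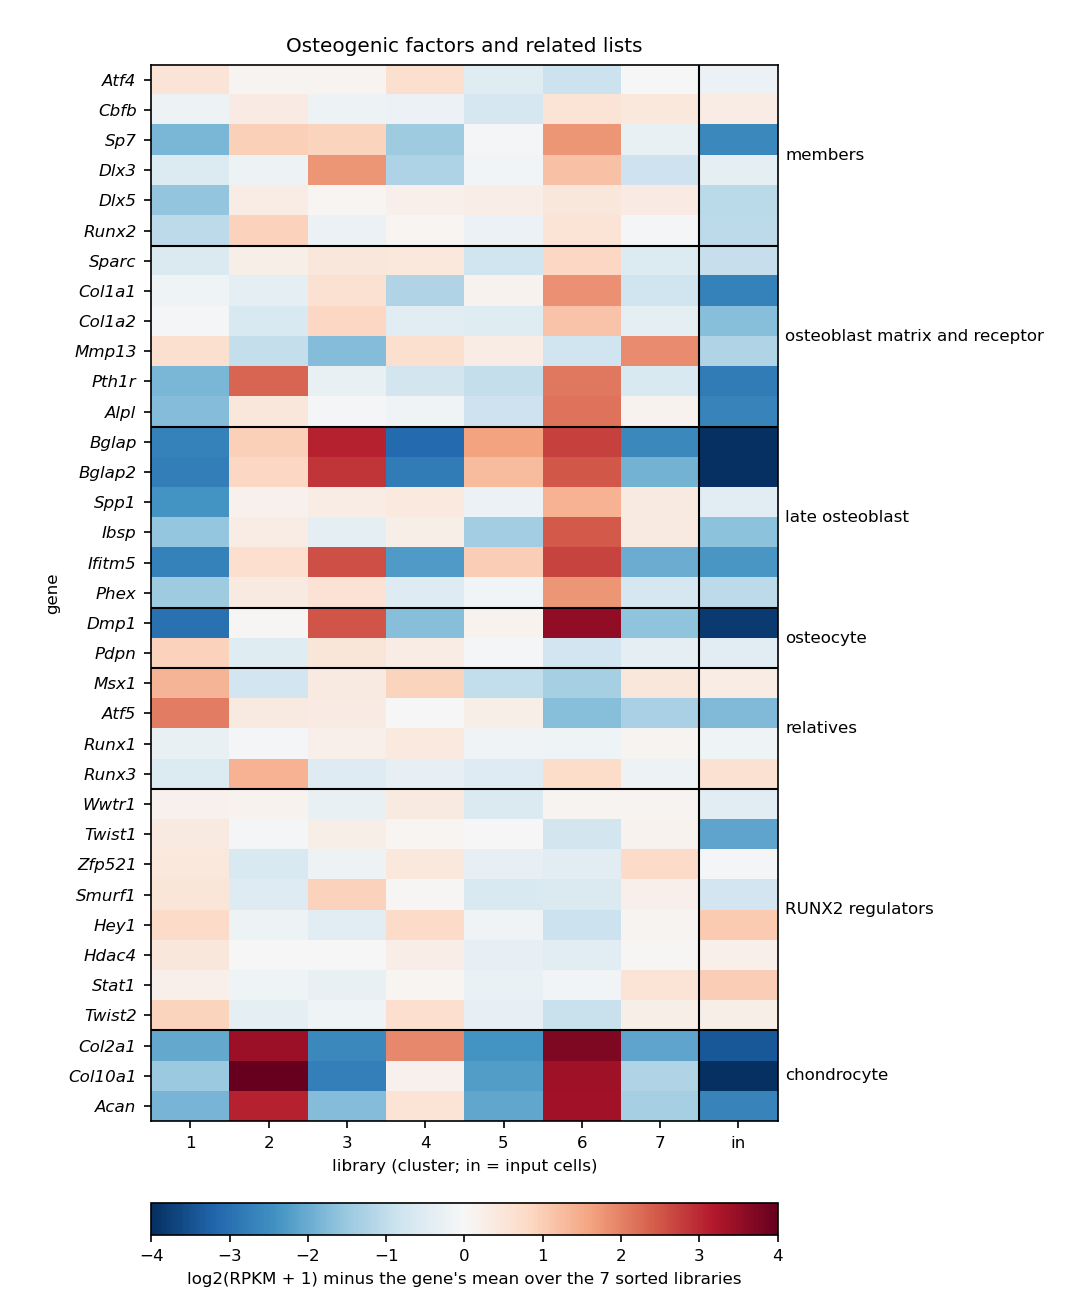
log2(RPKM + 1) of each gene minus its mean over the 7 sorted libraries (colour) for the factors, the related lists and the chondrocyte markers, in clusters 1 to 7 and the input cells (in). Only genes with an RPKM above 2 in at least 1 sorted library are shown, so Dlx6 and Msx2 are left out. Bglap and Bglap2 are highest in cluster 3 and the other late osteoblast genes in cluster 6. The chondrocyte markers are highest in clusters 2 and 6, and cluster 1 is low for Sp7, Dlx5, Runx2 and the late osteoblast genes.

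Proteins that act on RUNX2 were given by a list of 8 genes, of which 5 passed the 2-fold call (4 with TMM factors), beside 70.6% (56.8%) of all genes, and 4 were highest in cluster 1 (2 with TMM factors), beside 21.3% (9.98%). The lead of Hey1 by total count, and those of the 2 genes left with TMM factors, Twist2 and Hdac4, were within counting error. Twist1 and Twist2 encode proteins that bind the RUNX2 DNA-binding domain and hold it inactive. Twist1 had an RPKM of 30.04 in cluster 1 and 13.4 in cluster 6, and Twist2 of 2.58 in cluster 1 and 0.0497, from 5 counts, in cluster 6. The highest level of Twist1 moved to cluster 5 with TMM factors. Hey1, a Notch target that represses RUNX2, was level in clusters 1 and 4 at 6.87 and 6.85 and was 1.59 in cluster 6, and was highest in cluster 4 with TMM factors. Wwtr1 (TAZ), the most abundant gene of the list, varied less than 2-fold, from 30.4 in cluster 5 to 59.4 in cluster 4, and with TMM factors its extremes moved to clusters 3 and 6.

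Known target genes of ATF4 in amino acid and stress metabolism did not share 1 order. Of the 10 genes, 8 passed the 2-fold call under either scaling, beside 70.6% of all genes by total count and 56.8% with TMM factors. By total count 3 were highest in cluster 4, 2 each in clusters 3 and 6 and 1 each in clusters 1, 2 and 7, and with TMM factors 3 each in clusters 4 and 6 and 1 each in clusters 2, 3, 5 and 7, as Phgdh moved to cluster 4, Psat1 to cluster 6 and Ddit3 to cluster 5. Among all genes that passed, 21.3%, 7.1% and 25.3% were highest in clusters 1, 6 and 7 (9.98%, 20.9% and 17.1% with TMM factors). Such shares are not given here for clusters 2 to 5, so nothing is read from the counts there. The lead of Phgdh was within counting error under both scalings, that of Psat1 by total count and that of Ddit3 with TMM factors. Ddit3 and Trib3, stress-response genes, were highest in cluster 4 at 38.3 and 5.19, where Atf4 was highest. Asns, asparagine synthetase, was 20.4 in cluster 6, where Atf4 was lowest, and 20.2 in cluster 3, a ratio of 1.01 (0.941 to 1.08) that was 1.28 (1.19 to 1.37) with TMM factors. Chac1, a glutathione-degrading enzyme, was 17.3 in cluster 3, 12.5 in cluster 4 and 1.73 in cluster 7. Phgdh, the first enzyme of serine synthesis, had the highest r with Atf4 among the 10, at 0.90 over 7 libraries (0.77 with TMM factors). Asns had the lowest, at -0.54 (-0.67 with TMM factors).

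The letters TGATGCAA were held by Chac1 and Slc7a11, out of 9 ATF4 targets with a window, and by 1.03% of all genes with a window. Chac1 (chr2:119351037-119351066, plus strand), whose range was the widest of the 10 targets, carries their reverse complement.
Chac1: ccttccctgccgTTGCATCActcctgccag

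Factors of other mesenchymal lineages were read beside the osteogenic ones. Sox9, the cartilage factor, had an RPKM of 54.8, 159, 49.3, 97.1, 29.4, 164 and 45.8 in clusters 1 to 7, so that clusters 6, 2 and 4 led. Scx, the tendon factor, was highest in cluster 1 at 41.3, a lead within counting error with TMM factors, and lowest in cluster 6 at 7.45, and Pparg, the fat cell factor, did not pass an RPKM of 2 in a sorted library. The chondrocyte markers Acan, Col2a1 and Col10a1 moved with Runx2. Their summed RPKM was 212, 9499, 148, 3134, 166, 11262 and 212 in clusters 1 to 7 and 81.2 in the input cells, with Col2a1 the most abundant, and clusters 2, 6 and 4 were the 3 highest for these markers and for Runx2. With TMM factors cluster 5 was level with cluster 4 for Runx2, at 5.98 and 5.86. The r of Runx2 was 0.86 with Acan, 0.81 with Col2a1 and 0.82 with Col10a1. For the same 3 markers the r of Cbfb was 0.68, 0.57 and 0.70, that of Sp7 0.56, 0.41 and 0.49, that of Dlx5 0.44, 0.40 and 0.35, and that of Dlx3 0.13, -0.0032 and 0.014. Runx2 is also known to act in hypertrophic chondrocytes, and the part of chondrocyte RNA in its levels and in those of the other factors was not tested. The 4 libraries with the lowest chondrocyte sums, clusters 1, 3, 5 and 7, were picked after the values were seen. Runx2 was 2.05, 4.37, 4.43 and 5.03 in them, and by total count its log2 fold of 0.98 missed the 2-fold call. With TMM factors cluster 5, at 5.98, and cluster 1, at 1.85, were more than 2-fold apart in RPKM + 1. By total count this choice leaves out the 3 highest Runx2 levels. A smaller range was thus fixed beforehand, and nothing is read from it.

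Transcripts of red cells were highest in cluster 5, where the 4 erythroid markers summed to 49050, with Hba-a1 the most abundant. The other sorted libraries ran from 1178 in cluster 6 to 10253.5 in cluster 1, all above the 515 of the input cells. Cluster 5 was the library with the highest Dlx6 level, and the part of erythroid RNA in it was not tested.

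For 3 of the factors, the genes most like them were ranked by r over the 7 sorted libraries among 8725 genes. Nearest to Runx2 were Kcnma1 (r = 0.96), Dync1i1, Batf, Slc16a4 and Rpl39l (0.93), and Kcnma1 had an RPKM of 3.55 in cluster 1, 20.04 in cluster 2 and 22.9 in cluster 6. Nearest to Sp7 were C130050O18Rik (0.98), Mpv17l, Col13a1, Rcor2 and Cthrc1 (0.94). Cthrc1, a secreted protein of matrix-forming cells, had an RPKM of 49.99 in cluster 1, 213 in cluster 3 and 222 in cluster 6. Nearest to Dlx5 were Spp1 (0.93), Tnfrsf19, Tmem176a, Hpgd and Cd200 (0.84). The values rest on 7 libraries that share depth and composition, and no test is attached to them.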

How the data were processed

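RNA-seq of 7 sorted populations and of input bone marrow cells was used, with 1 library each. The authors deposited raw read counts on the exons of 49315 Ensembl genes, with exon lengths and GRCm38 positions. Per the Methods, reads were trimmed for quality, aligned to mm9 with TopHat2 and expressed as RPKM in Partek Flow. The counting tool, strandedness and treatment of shared reads are not given in the sources used here. The labels describe RNA of crushed marrow, the Methods sorted cells with polyA selection.

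RPKM was computed from the deposited counts, total count and exon length, with log2(RPKM + 1) for folds. The backgrounds held all genes whose RPKM exceeded 2 in any sorted library or, for comparisons with the input, in either library. Intervals were exact, Poisson for levels and binomial for ratios. edgeR and DESeq2 gave scaling factors only, because no population had a replicate. Symbols were available for 32464 genes. The members and lists were chosen with earlier results of these data known. Named genes were the 8 factors, genes of the lists, overlapping genes and the 5 genes with the highest r with Runx2, Sp7 and Dlx5. Listed genes not named enter the counts and sums of their list, and 1 further gene is not reported here. The calculations were tested on simulated counts. Tools were R 4.3.3 with edgeR 4.0.16 and DESeq2 1.42.0, and Python 3.11.15 with matplotlib 3.10.9, scipy 1.17.1, pandas 2.3.3 and numpy 2.4.6.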

Additional observations from a re-analysis of the deposited data

How the results depend on the processing

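No paired analysis was possible because the groups held 1 library each, and no replicate could be left out. Alternatives were TMM and DESeq2 size factors, totals lacking Rn18s-rs5, Lars2 and mmu-mir-689-2, totals without mitochondrial and haemoglobin genes, a pseudocount of 0.1, no RPKM filter and omission of cluster 5. Of 48 counts of factors, 46 stayed within 1.5 times the main count, but 164 of 360 recomputed log2 folds and 13 of 28 recomputed correlations moved by more than their counting interval or by over 0.1. The sign turned under at least 1 alternative for 12 of the 72 folds, all among the 56 against the input cells and none past 2-fold by total count. With totals lacking Rn18s-rs5, Lars2 and mmu-mir-689-2, 2 factors instead of 1 were highest in cluster 5, because Dlx5 moved there from cluster 6. In the same setting 6 factors still passed the 2-fold call, but Dlx6 had replaced Cbfb. Without cluster 5, 2 factors instead of 1 were highest in cluster 2, because Dlx6 moved there. The number of factors past 2-fold was 8 without the RPKM filter, 5 without cluster 5 (Cbfb lost) and 5 without clusters 2, 4 and 6 (Runx2 lost). Both were lost by total count but not with TMM factors. With these Cbfb was 50.6 in cluster 6 and 20.8 in cluster 1. Runx2 was 5.98 in cluster 5 and 1.85 in cluster 1. The number lowest in cluster 1 was 5 or 6 in every setting. The r of Runx2 with Dlx3 was -0.048 without cluster 6, and that with Dlx6 was 0.35 over all 7 sorted libraries and 0.97 without cluster 5. Settings without clusters 2, 4 and 6, and the counts of lowest and of highest libraries without cluster 5, were chosen after seeing the data. Depth limited Dlx6 and Msx2, with 2 and 8 counts in cluster 1, and the spread between sorts remains unknown for every value.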
